A study of Mus musculus with 4 samples.

Results

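Oligodendrocyte precursor cells (OPC) of the mouse hippocampus were examined as single nuclei. OPC nuclei were chosen by the RNA of 6 marker genes, *Pdgfra*, *Cspg4*, *Vcan*, *Neu4*, *Emid1* and *Shc4*. A nucleus counted as OPC if it held at least 3 UMIs (unique transcript molecules) of the markers together, at least 10 per 10000 of its UMIs, and at least 1 UMI of *Pdgfra* or *Cspg4*. It also had to hold under 20 per 10000 UMIs of the neuronal genes *Syt1* and *Snap25* and at most 20% mitochondrial UMIs. Of 57350 deposited nuclei, 56834 passed the mitochondrial limit and 458 were OPC.

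The nuclei came from 8 pools of male mice, 1 pool of 3 hippocampi for each condition. The genotype experiment paired Con-IL-1R1+/+ with Stress-IL-1R1+/+, and the knockout control pool Con-nIL-1R1-/- with Stress-nIL-1R1-/-. In nIL-1R1-/- mice, Cre driven by *Vglut2* (*Slc17a6*) deletes *Il1r1*, the IL-1 receptor, in glutamatergic neurons, so the deletion does not target OPC. IL-1R1+/+ mice are Cre-negative and were bred in-house. The diet experiment, in C57BL/6 mice, paired Control-Vehicle with Stress-Vehicle and Control-PLX5622 with its stressed counterpart Stress-PLX5622. These mice ate AIN-76A chow (vehicle) or the same chow with PLX5622, a CSF1R inhibitor that depletes microglia, from 7 days before stress began. Stress was repeated social defeat (RSD), that is 6 nightly encounters of 2 h with an aggressive CD-1 male, which control mice did not have. Hippocampi of the stress pools were taken 14 h after the last defeat. Each pool is a single preparation of pooled animals, so nuclei of a pool are not replicates, and a difference between single pools has no replicate check.

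OPC are the dividing glial progenitors that give rise to myelinating oligodendrocytes throughout adult life. They depend on PDGF-A, which they sense through the receptor encoded by *Pdgfra*, and they carry the NG2 proteoglycan encoded by *Cspg4*. In the hippocampus they receive glutamatergic and GABAergic synapses from neurons, and a fraction of them pass through a short-lived *Gpr17*-positive committed stage before they make myelin.

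OPC nuclei were few in every pool. There were 78 in Control-Vehicle, 56 in Stress-Vehicle, 3 in Control-PLX5622 and 13 in Stress-PLX5622. The IL-1R1+/+ pools gave 83 in control and 80 in stress, and the nIL-1R1-/- pools 73 and 72. The OPC nuclei held a median of 1936 UMIs (215 to 37375) and of 1134.5 genes. Summed over its OPC nuclei, a pool held 171072 and 133295 UMIs in the vehicle pools, 249790 and 238154 in the IL-1R1+/+ pools, and 257794 and 156362 in the nIL-1R1-/- pools, control first. Both PLX5622 pools stand apart, with 2821 UMIs in Control-PLX5622 and 21666 in Stress-PLX5622, and gene levels there rest on very few molecules. Levels below are CPM, UMIs of a gene scaled to the summed UMIs of the OPC nuclei, and intervals are 95% and hold counting error only.

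The rule's own genes are a description and not a finding. Both *Pdgfra* and *Cspg4* were seen in 238 of the 458 nuclei, *Cspg4* without *Pdgfra* in 135 and *Pdgfra* without *Cspg4* in 85. All 6 markers were seen in 20 nuclei, 5 in 81, 4 in 128, 3 in 147, 2 in 76 and a single marker in 6. Marker UMIs per 10000 ran from 10.05 at the limit to 140, with a median of 35.7. Just inside the limit on marker UMIs, 71 nuclei had 3 and 60 had 4, and just outside it 66 nuclei that met every other part of the rule had 2 and 54 had 1. The limit on neuronal RNA alone kept out 57 nuclei, the limit per 10000 alone 49 and the need for *Pdgfra* or *Cspg4* alone 83. No full barcode was shared between pools. Without the sublibrary, 40 well combinations of members were found in more than 1 sublibrary or pool, as split-pool barcoding allows.

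Genes that the rule did not use were set against all other nuclei, mature oligodendrocytes and astrocytes, again with no test, since the nuclei were chosen by their RNA. Mature oligodendrocyte nuclei (1362) and astrocyte nuclei (161) were chosen by analogous rules on 6 markers each, led by *Mag* and *Mog* and by *Aqp4* and *Gja1*. Of the 30 further OPC genes, 29 were higher in OPC than in other nuclei, with a median ratio of 6.92. *C1ql1*, a secreted C1q-like protein, was at 81.2 CPM in OPC and 0.703 in other nuclei. *Matn4*, a matrilin of the matrix, was at 158 and 2.84 CPM, and *Cacng4*, an auxiliary subunit of AMPA receptors, at 858 and 21.5 CPM. *Lhfpl3* was seen in 452 of 458 nuclei, at 8400 CPM in OPC against 156 in mature oligodendrocytes and 140 in astrocytes. *Ptprz1*, a receptor phosphatase that binds matrix, was at 1922 CPM in OPC and 56.4 in mature oligodendrocytes but at 1258 in astrocytes. The list's exception was *Lingo1*, an inhibitor of oligodendrocyte differentiation, at 73.1 CPM in OPC and 266 in other nuclei, and *Opcml* hardly differed (5920 and 5154 CPM).

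Ranked by the ratio of OPC to other nuclei, 15 of 629 well-counted genes were taken, and 5 of the 15 were markers of the rule. The others were *Gm4876* (950 against 19.1 CPM), *Zcchc24* (490 against 11.4), *Cacng4*, *Sema3d*, a secreted guidance cue (314 against 7.93), and *Ntn1*, the guidance cue netrin-1 (285 against 7.83). They were followed by *Abtb2*, *Kank1*, *Afap1l2*, *Lhfpl3* and *Arhgap31*, with ratios from 35.7 down to 27.3. Several of them were shared with other glia: *Kank1* was at 405 CPM in OPC and 499 in astrocytes, and *Zcchc24* was at 183 CPM in astrocytes and 158 in mature oligodendrocytes.

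**Figure D1:**
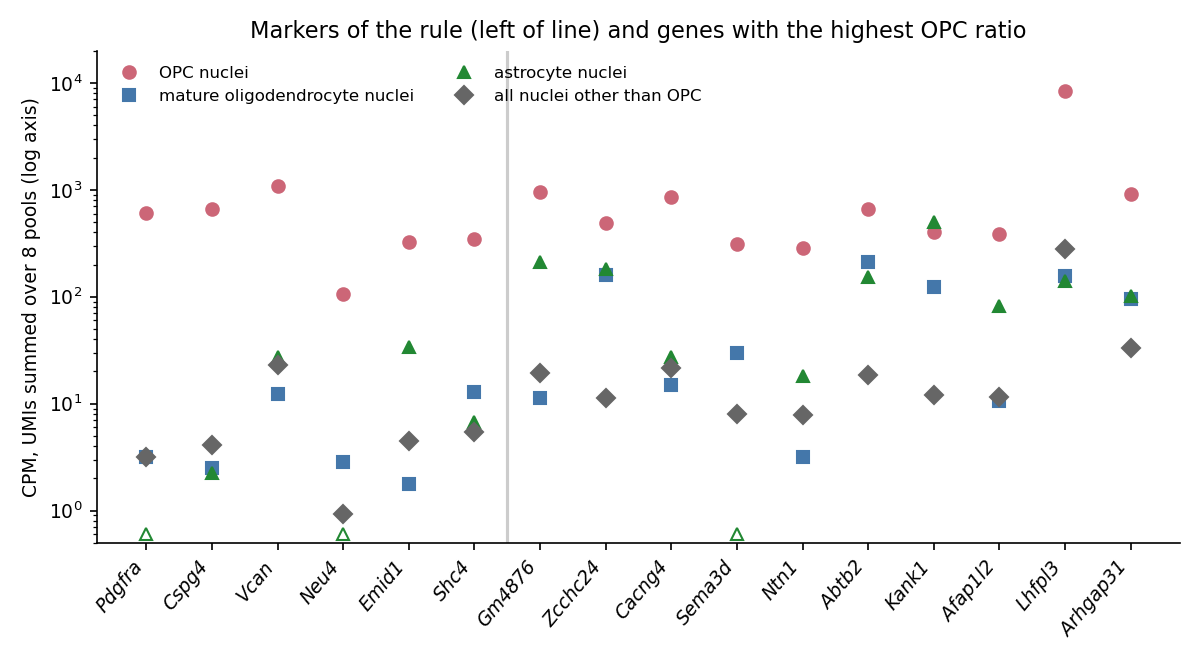
Level of each gene (CPM, log axis) in OPC nuclei, mature oligodendrocyte nuclei, astrocyte nuclei and all nuclei other than OPC, each summed over the 8 pools; open symbols at the bottom are 0 UMIs. OPC nuclei are highest for every gene shown except *Kank1*, and the 6 genes left of the line were used to choose them.

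Of 20 transcription factors of the lineage, 18 were higher in OPC than in other nuclei, all but *Nkx6-2* and *Nfib*. *Sox6*, which holds OPC in the progenitor state, was at 1881 CPM in OPC, 56.7 in mature oligodendrocytes and 75.7 in all other nuclei, with astrocytes between (1003). *Sox10*, the factor of the whole oligodendrocyte lineage, was at 200 CPM in OPC and 188 in mature oligodendrocytes, against 7.98 in other nuclei. *Olig2*, required to specify the lineage, was sparse, with 39 UMIs in 38 nuclei, and *Nkx2-2* had 69 UMIs. *Myt1*, a zinc finger factor of progenitors, was at 476 CPM in OPC and 18.8 in mature oligodendrocytes. *Zfp536* went the other way within the lineage, at 321 CPM in OPC and 2174 in mature oligodendrocytes.

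Myelin genes separated OPC from mature oligodendrocytes. *Mbp*, which encodes myelin basic protein, was at 179.5 CPM in OPC nuclei, 4243 in mature oligodendrocytes and 232 in all other nuclei. *Fa2h* and *Ugt8a*, enzymes of myelin lipid synthesis, were already present, at 77.2 and 88.5 CPM, against 501 and 452 CPM in mature oligodendrocytes. Genes of committed precursors were mostly above other nuclei (18 of 20), among them *Bcas1* and *Tns3*, at 581 and 448 CPM against 861 and 393 CPM in mature oligodendrocytes.

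Receptor and matrix genes were shared in part with astrocytes. *Notch1*, the receptor that restrains differentiation, was at 119 CPM in OPC, 12.8 in mature oligodendrocytes, 4.61 in all other nuclei and 97.1 in astrocytes. Its ligand gene *Dll1* was at 29.2 CPM in OPC, 2.48 in mature oligodendrocytes and 0 in astrocytes. *Ednrb*, the endothelin B receptor, was at 46.3 CPM against 1.06 in mature oligodendrocytes, but astrocytes held more (70.0). *Erbb4* and *Gfra1*, receptors for neuregulins and GDNF, were at 2669 and 364 CPM. Of 31 glutamate and GABA receptor genes all had UMIs in OPC, and 10 were higher than in other nuclei, led by *Grin3a* (463 against 75.1 CPM), an NMDA receptor subunit that lowers calcium flow, and *Gabrg1*, a GABA-A receptor subunit. *Grin2a* and *Grin2b*, the main NMDA subunits of hippocampal neurons, were lower than in other nuclei, at 913 and 482 CPM. Of the matrix genes, *Bcan* and *Cspg5*, proteoglycans, were at 381 and 240 CPM in OPC, 34.0 and 7.09 in mature oligodendrocytes and 490 and 151 in astrocytes.

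Markers of other cell types were counted in the OPC nuclei as a check. The 10 astrocyte markers held 860 UMIs, led by *Slc1a2* (378), the 8 mature oligodendrocyte markers 145, led by *Mobp* (75), and the 10 microglia markers 101, with *Tmem119* and *C1qa* at 0. The 8 endothelial markers held 228 UMIs, led by *Flt1* (85), with *Cldn5* at 0, and the 8 pericyte markers 109, led by *Atp13a5* (54), with *Kcnj8* and *Higd1b* at 0. The 12 neuronal markers held 5285 UMIs, of which *Meg3* gave 2793. Per 10000 UMIs, endothelial markers were uneven, at 5.33 in Stress-Vehicle and 3.23 in Stress-IL-1R1+/+ against 0 to 1.63 in the other pools. Pericyte markers were highest in Stress-Vehicle (3.53), and no other pool exceeded 1.36. In all, 9 OPC nuclei also met the rule for mature oligodendrocytes and 3 that for astrocytes.

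OPC nuclei differed among themselves in RNA of genes of the committed stage. *Gpr17*, the receptor of the committed stage, had a UMI in 58 of 458 OPC nuclei (12.7%), at 62.6 CPM against 6.03 in mature oligodendrocytes and 0 UMIs in astrocytes. The 58 nuclei were deeper (median 2819.5 UMIs against 1895), and 20 of them came from Con-nIL-1R1-/-. Relative to OPC nuclei without *Gpr17*, they held more RNA of the committed list, at 46.9 against 31.3 UMIs per 10000, a log2 ratio of 0.58 (0.48 to 0.68). The myelin list was at 14.9 against 7.14 UMIs per 10000, a log2 ratio of 1.07 (0.88 to 1.25). *Bcas1* was at 988 against 486 CPM, and *Fyn*, a kinase that promotes differentiation, at 816 against 421 CPM. *Myrf*, the transcription factor that switches on myelin genes, had 13 UMIs in nuclei with *Gpr17* and 17 in those without, 56.1 against 17.0 CPM. Of the 30 further OPC genes, 21 had intervals that include no difference between the same nuclei, 6 were higher with *Gpr17* and 3 lower. *Lhfpl3* was at 8437 and 8391 CPM, *Tnr*, the matrix protein tenascin-R, at 7384 and 5951 CPM, and *Xylt1*, an enzyme of proteoglycan synthesis, at 3172 and 3748 CPM. The rule's own markers are bound by the choice of all 458 nuclei and are given without comparison: *Pdgfra* was at 626 and 600.5 CPM, *Cspg4* at 678 and 663 CPM, *Neu4* at 155 and 94.1 CPM, *Emid1* at 242 and 340 CPM, and *Shc4* at 272 and 362 CPM. Markers of mature oligodendrocytes moved with this split, at 2.50 against 0.871 UMIs per 10000, and neuronal markers were lower, at 35.9 against 44.6. Endothelial markers were at 0.302 against 2.21 and pericyte markers at 0.0432 against 1.08 UMIs per 10000. The part of these cell types in the result, mature oligodendrocytes among them, was not tested, and doublets were not called.

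**Figure D2:**
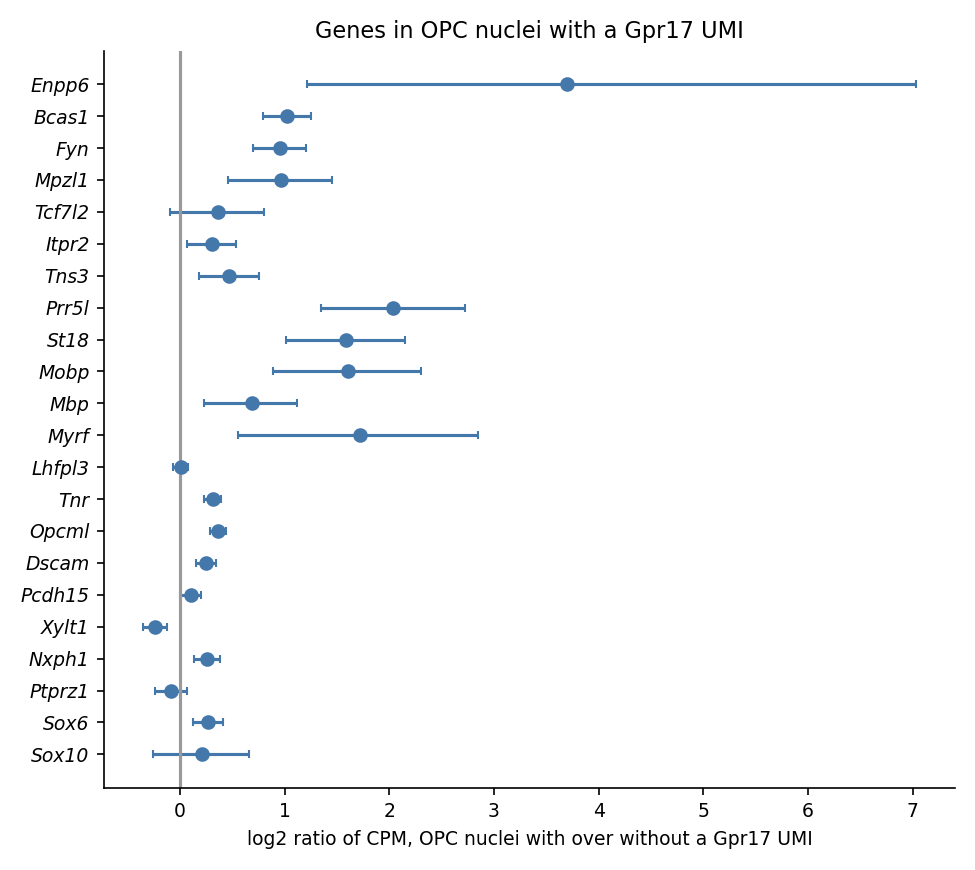
Log2 ratio of CPM in the 58 OPC nuclei with a *Gpr17* UMI over the 400 without, with 95% intervals of counting error, for genes of commitment and myelin (top) and for the 8 further OPC genes with most UMIs, *Sox6* and *Sox10* (bottom). *Bcas1*, *Fyn*, *St18*, *Mobp* and *Prr5l* lie about 1 or more to the right, while the bottom 10 genes lie between -0.24 (*Xylt1*) and 0.36 (*Opcml*).

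The share of OPC nuclei with a *Gpr17* UMI was 16.7% in Control-Vehicle, 8.93% in Stress-Vehicle, 8.43% and 5.00% in the control and stress IL-1R1+/+ pools, and 27.4% and 12.5% in the nIL-1R1-/- pools. It was lower in stress in each of these 3 backgrounds, and intervals overlapped in every one. The PLX5622 pools had 0 of 3 and 0 of 13, and 0 of 13 allows a share of up to 23.1%, taking 3 counts as the floor (24.7% as the exact upper limit). With each nucleus thinned to 1000 UMIs the gaps were smaller, and the order turned in the IL-1R1+/+ pair. The shares were then 10.8% and 7.14% in the vehicle pools, 2.94% and 3.03% in the IL-1R1+/+ pools, and 10.1% and 9.84% in the nIL-1R1-/- pools, control first.

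Nuclei with RNA of mitosis genes were few. At least 2 UMIs of 10 mitosis genes were found in 11 of 458 OPC nuclei (2.40%), 5 in control and 6 in stress pools. Chosen by these genes, the 11 held 25 of the 26 UMIs of *Mki67*, the proliferation marker, and 9 of 10 of *Top2a*, the topoisomerase of dividing cells. By pool there were 3 of 78 in Control-Vehicle, 2 of 56 in Stress-Vehicle, 0 of 83 and 1 of 80 in the IL-1R1+/+ pools, and 2 of 73 and 3 of 72 in the nIL-1R1-/- pools, control first. A count of 0 of 83 allows a share of up to 3.61% by the same floor (4.35% as the exact upper limit), of nuclei with such UMIs and not of dividing cells. Microglia markers were at 7.35 UMIs per 10000 in these nuclei and 0.612 in the rest, led by *Inpp5d* (12 UMIs) and *P2ry12* (7 UMIs). Mature oligodendrocyte markers were at 2.89 against 1.12 and neuronal markers at 21.3 against 43.6 UMIs per 10000, and the part of these cell types in the result was not tested. The 14 cell cycle genes not used to choose them summed to 17.9 UMIs per 10000 in them against 3.35 in the rest, from 68 UMIs, of which *Diaph3* gave 20 and *Pola1* 19. Not every member was higher, and *Ccnd1*, a cyclin of the G1 phase, had 0 UMIs in these nuclei and 42 in the rest.

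Whether RSD, PLX5622 or the knockout changed the abundance of OPC nuclei was asked from their share of all nuclei in a pool. Fewer OPC and less marker RNA per OPC cannot be told apart in such shares. The share was 0.920% (0.728 to 1.15) in Control-Vehicle and 0.764% (0.577 to 0.991) in Stress-Vehicle. In the genotype experiment it was 1.10% (0.876 to 1.36) in control and 1.37% (1.08 to 1.70) in stressed IL-1R1+/+ mice. In nIL-1R1-/- mice it was 1.12% (0.880 to 1.41) in control and 1.19% (0.933 to 1.50) in stress. Stress minus control was -0.157 percentage points in the vehicle pair, 0.129 in the PLX5622 pair, 0.267 in the IL-1R1+/+ pair and 0.0699 in the nIL-1R1-/- pair. The mean difference was 0.0772 points (SD 0.176, n = 4 pairs; two-sided exact sign-flip permutation test, p = 0.5), within the spread between pairs. With 4 pairs the smallest p comes from 2 of 16 sign patterns, so this test cannot reach 0.05. The log2 ratio of mean shares, nIL-1R1-/- over IL-1R1+/+, was -0.09, with no test.

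OPC nuclei were scarce in the PLX5622 pools. Their share was 0.0406% (0.00838 to 0.119) in Control-PLX5622 and 0.169% (0.0902 to 0.289) in Stress-PLX5622, below both vehicle pools, with a log2 ratio of mean shares of -3.00. With 1 pool of each kind in control and in stress, this difference was not tested. Depth moved with it, since the median UMIs of all nuclei were 598 and 628 in the PLX5622 pools against 2563 and 1325.5 in the vehicle pools. Thinned to 1000 UMIs, with shallower nuclei left out, the shares were 0.0947% and 0.135% against 0.598% and 0.376%, a log2 ratio of -2.09. Marker UMIs were also counted over all nuclei low in *Syt1* and *Snap25*, with no rule on single nuclei. They were at 53.1 and 84.2 CPM of those nuclei against 156 and 143 CPM, a log2 ratio of -1.12. Counted over all nuclei, neurons included, they were at 36.5 and 56.5 CPM against 58.5 and 72.5 CPM, a smaller gap. The interval of Stress-PLX5622 (51.3 to 62.2) then included the value of Control-Vehicle. Mature oligodendrocyte nuclei were also fewer, at 0.420% and 0.951% against 2.47% and 1.31%. Astrocyte nuclei were at 0.135% and 0.195% against 0.389% and 0.0955%, lower with PLX5622 in control and higher in stress. Whether depth accounts for the remaining difference was not tested.

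**Figure D3:**
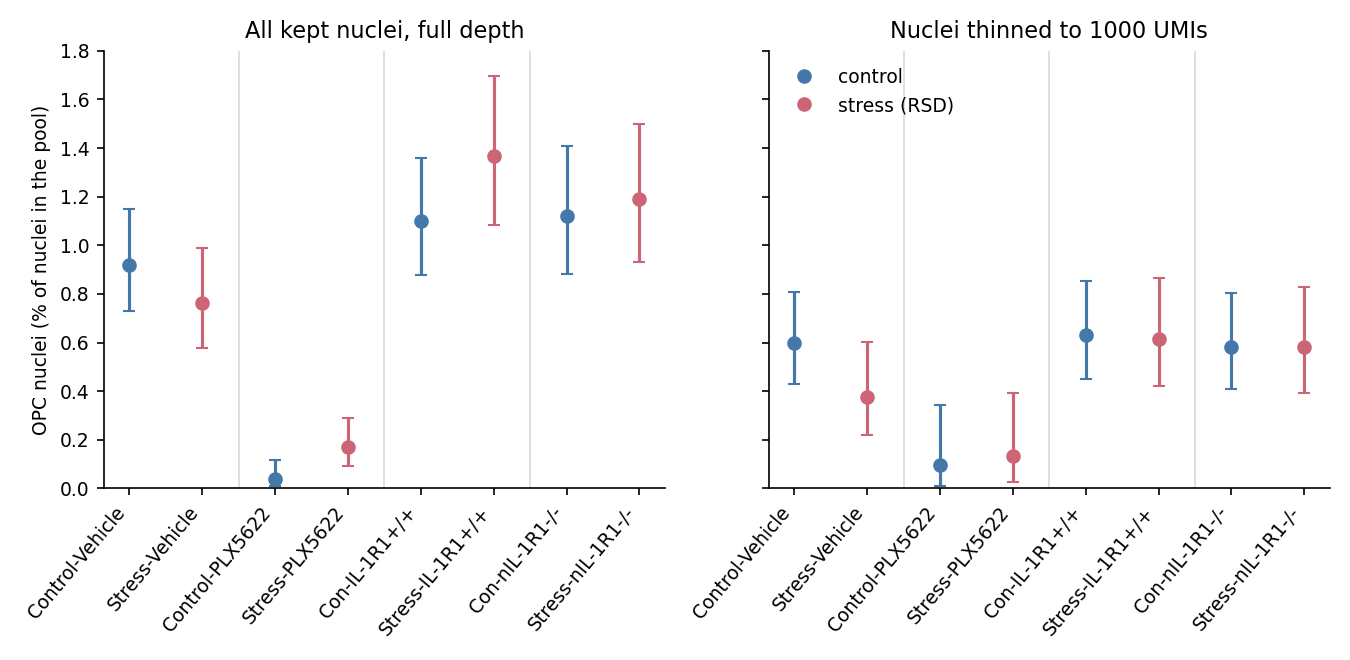
OPC nuclei as a percentage of all kept nuclei in each pool, at full depth (left) and with each nucleus thinned to 1000 UMIs (right); bars are 95% Clopper-Pearson intervals. Both PLX5622 pools lie below 0.2% in either panel, and the intervals of control and stress overlap within each background.

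Sublibraries, the 4 separately amplified parts labelled in the series that each hold nuclei of every pool, differed in OPC share. The share was lowest in sublibrary 2 in 6 of the 8 pools. In Control-Vehicle, for example, it was 1.30%, 0.470%, 0.559% and 1.36% in sublibraries 1 to 4. The values used here are sums over the 4, to which pools gave unequal numbers of nuclei, and Control-PLX5622 had no OPC nucleus in sublibrary 3.

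RSD was then tested gene by gene over the 4 pairs of control and stress pools. Of 2856 genes tested in OPC nuclei, 2 passed an adjusted p of 0.05 (0.07% of genes tested; edgeR quasi-likelihood test, Benjamini-Hochberg), and both rose. They were *Zbtb16* and *Rn7sk*. At an unadjusted p under 0.05 there were 93 genes, and DESeq2 called 0. The 93 are fewer than the share of 0.05 of genes that this cutoff gives with no effect.

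*Zbtb16* (chr9:48563141-48748664, GRCm39) encodes PLZF, a zinc finger repressor of transcription and a known target of glucocorticoids. Its level was 637 CPM in Control-Vehicle and 990 in Stress-Vehicle, from 109 and 132 UMIs. In the IL-1R1+/+ pools it was 276 CPM in control and 697 in stress, from 69 and 166 UMIs. The nIL-1R1-/- pools gave 240.5 CPM in control and 729 in stress, from 62 and 114 UMIs. Stress was higher in each of these backgrounds, and the 3 stress pools lay above all 3 control pools. The PLX5622 pools gave 709 CPM in control, from 2 UMIs, and 646 in stress, from 14. The fitted log2 fold change was 1.15 ± 0.27 (SE; adjusted p = 0.0245, edgeR). In nuclei thinned to 1000 UMIs, *Zbtb16* was seen in 40.0% and 66.7% of vehicle nuclei and 19.1% and 42.4% of IL-1R1+/+ nuclei, control first. It was seen in 18.8% and 47.5% of nIL-1R1-/- nuclei, and in 2 of 2 and 3 of 8 nuclei of the PLX5622 pools, in the same order. The call depended on single pairs, with an adjusted p of 0.9987 without the IL-1R1+/+ pair (log2 fold change 1.07) and of 0.9996 without the nIL-1R1-/- pair (0.98). It was lost in 7 of 14 alternatives in all, among them leaving out nuclei with markers of other cell types (1.08, adjusted p = 0.0549) and DESeq2 (1.18, adjusted p = 0.101), while the direction held in 14 of 14.

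*Rn7sk* (chr9:78082585-78082915, GRCm39) is the 7SK small nuclear RNA, which holds the elongation factor P-TEFb in an inactive form. It was at 117 and 338 CPM in the vehicle pools, 24.0 and 244 CPM in the IL-1R1+/+ pools and 116 and 243 CPM in the nIL-1R1-/- pools, control first. These values came from 20 and 45, 6 and 58, and 30 and 38 UMIs, and the stress pools again lay above the control pools. The PLX5622 pools held 1 and 5 UMIs. The log2 fold change was 1.72 ± 0.32 (SE; adjusted p = 0.000308, edgeR). The genome holds many near-identical copies of this RNA, so its count is uncertain. The call held in 9 of 14 alternatives and was lost without the IL-1R1+/+ pair (log2 fold change 1.23, adjusted p = 0.9987, edgeR). In the other 4 that lost it the log2 fold change was 1.796 (DESeq2) to 2.22 (thinned to 500 UMIs).

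Next in rank were genes that did not pass. *Fkbp5*, a cochaperone of the glucocorticoid receptor and a sensitive glucocorticoid target, was at 56.0 and 197 CPM in the IL-1R1+/+ pools and 58.2 and 198 CPM in the nIL-1R1-/- pools, control first. In the vehicle pools it was level, at 181 and 188 CPM, and the PLX5622 pools held 0 and 2 UMIs. Its log2 fold change was 1.15 ± 0.33 (SE; adjusted p = 0.300, edgeR), and without the vehicle pair it passed (1.79, adjusted p = 0.00683). *Mertk*, a phagocytic receptor kinase, was at 228 and 300 CPM in the vehicle pools, 88.1 and 290 in the IL-1R1+/+ pools, and 136 and 269 in the nIL-1R1-/- pools (0.94 ± 0.30, adjusted p = 0.543, edgeR). *Htra1*, a secreted serine protease, was lower in stress in the vehicle pools (187 and 67.5 CPM) and higher in the IL-1R1+/+ pools (72.1 and 227 CPM) and nIL-1R1-/- pools (69.8 and 281 CPM; 0.92 ± 0.32, adjusted p = 0.914, edgeR). *Gm47283* was higher in stress in all 4 pairs, though the PLX5622 pair rests on 3 and 13 nuclei (1.49 ± 0.39, adjusted p = 0.101, edgeR). Without the vehicle pair it passed (1.78, adjusted p = 0.0204, edgeR), and without the IL-1R1+/+ pair its log2 fold change was 0.98. This gene's count has a limit of its own. It is annotated on the Y chromosome, and reads it may share with near-identical copies make its count uncertain.

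On the lower side, *Lypd6*, a membrane-anchored modulator of nicotinic receptors and Wnt signalling, had 13 and 3 UMIs in the vehicle pools, 20 and 7 in the IL-1R1+/+ pools and 22 and 2 in the nIL-1R1-/- pools, control first, and the PLX5622 pools 1 and 0. Outside PLX5622, the 3 stress pools lay below the 3 control pools, at 12.8 to 29.4 against 76.0 to 85.3 CPM. The log2 fold change was -1.92 ± 0.50 (SE; adjusted p = 0.101, edgeR). It passed without nuclei of over 8000 UMIs (adjusted p = 0.0199) and without the pair as a block (adjusted p = 0.0203). *Unc5d*, a netrin receptor, had a log2 fold change of -1.23 (adjusted p = 0.353), but most of the 115 UMIs of Con-IL-1R1+/+ lay in a single nucleus of 37375 UMIs. Its log2 fold change was -0.48 without nuclei of over 8000 UMIs and -0.03 without the IL-1R1+/+ pair, and it passed without the vehicle pair (-1.81, adjusted p = 0.00315) and without the block (-1.44, adjusted p = 0.0109). *Nell1*, *Mapre2* and *Cmtm4* followed, with log2 fold changes from -1.08 to -1.16 and adjusted p from 0.543 to 0.914.

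**Figure D4:**
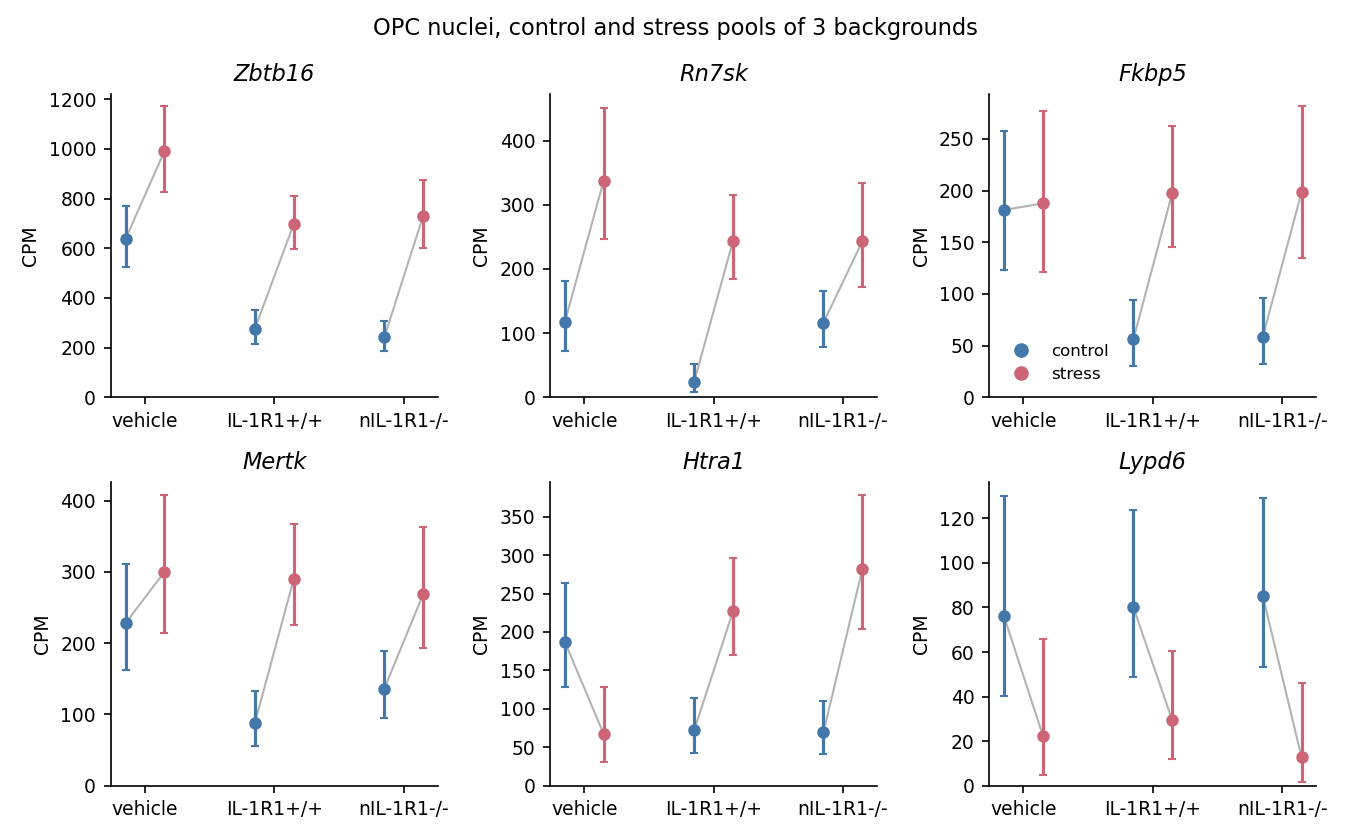
CPM of 6 genes in OPC nuclei of the control and stress pools, joined by a line within vehicle, IL-1R1+/+ and nIL-1R1-/- backgrounds; bars are 95% Poisson intervals, and the PLX5622 pools, with 3 and 13 nuclei, are not drawn. *Zbtb16* and *Rn7sk* are higher in stress in all 3 backgrounds, *Fkbp5* in the 2 genotype backgrounds but level in vehicle, *Htra1* has opposite directions, and *Lypd6* is lower in all 3.

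Gene lists were described by counts and medians. Of 28 glucocorticoid-responsive genes, 24 had a UMI in OPC nuclei and 9 were tested. Of the 9, 1 (*Zbtb16*) passed and 7 had a positive log2 fold change, with a median of 0.78. Over all 2856 genes 2 passed, 1534 (53.7%) were positive and the median was 0.02. Summed, the list was at 23.0, 15.5 and 16.6 UMIs per 10000 in the vehicle, IL-1R1+/+ and nIL-1R1-/- control pools and at 26.2, 26.5 and 28.2 in their stress pools. *Zbtb16* gave 668 of the list's 2701 UMIs. Without it the list was at 16.7 and 16.3 UMIs per 10000 in the vehicle pools, so the direction turned there, and at 12.8 and 19.6 in the IL-1R1+/+ pools and 14.2 and 20.9 in the nIL-1R1-/- pools, control first. *Sgk1*, a kinase induced by glucocorticoids, was at 275 and 233 CPM in the vehicle pools, 268 and 386 in the IL-1R1+/+ pools and 272 and 313 in the nIL-1R1-/- pools (log2 fold change 0.24). *Gpd1*, which makes glycerol 3-phosphate, was higher in stress in all 4 pairs but sparse (0.78 ± 0.44, 71 UMIs). The glucocorticoid and mineralocorticoid receptors *Nr3c1* and *Nr3c2* were at -0.02 and -0.21. Genes of the list too sparse to test included *Klf9*, higher in stress in 4 of 4 pairs with 62 UMIs, and *Tsc22d3*, with 6 UMIs. For *Gpd1* and *Klf9* the direction in the PLX5622 pair rests on very few UMIs, since Control-PLX5622 held 2821 over all genes.

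The other lists gave no member that passed. Medians were -0.002 for the 28 tested OPC genes, 0.005 for 11 genes of committed precursors, 0.01 for 5 myelin genes, -0.04 for 8 lineage transcription factors and -0.07 for 25 glutamate and GABA receptor genes. Growth factor and cytokine receptors (15 tested), ion channels and transporters (22) and extracellular matrix genes (10) had medians of 0.13, 0.08 and 0.20. *Lamc1*, a laminin chain, was at 0.58, *Slc1a1*, a glutamate transporter, at 0.68, *Gabbr1*, a GABA-B receptor subunit, at 0.71, and the clock gene *Rorb* at -0.81. The pathway list of Wnt, BMP and Notch genes had 3 tested members (median -0.15), the clock list 5 (-0.05), and lipid synthesis genes 3 (0.03). Only 2 cell cycle genes, *Pola1* (-0.44) and *Diaph3* (-0.62), could be tested. Of 28 inflammation and antigen presentation genes 16 had a UMI, and *Stat3* (0.32) and *Nfkb1* (-0.16) were tested, while *Il1b*, *Tnf*, *Ccl2* and *Cd74* were at 0 UMIs. Of 27 activity and stress response genes 20 had a UMI and none was tested, with *Fos* at 1 UMI and *Hsp90aa1* at 38.

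**Figure D5:**
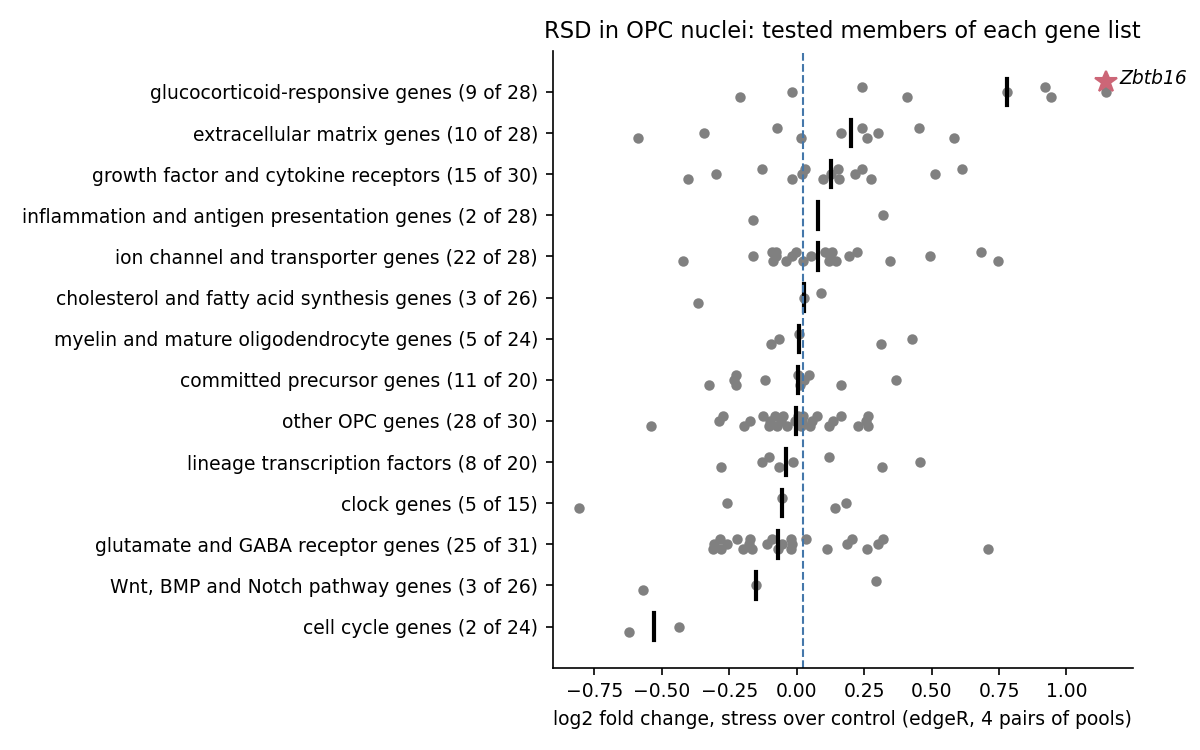
Log2 fold change of stress over control in OPC nuclei (edgeR, 4 pairs of pools) for the tested members of each gene list; black bars are list medians, the dashed line is the median of all 2856 genes, and the star marks the called gene. Glucocorticoid-responsive genes have a median of 0.78, extracellular matrix genes one of 0.20, and the cell cycle list, with 2 genes, is lowest.

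Per 10000 UMIs of OPC nuclei, microglia markers were at 0.117 and 2.03 in the vehicle pools, 0.320 and 0.798 in the IL-1R1+/+ pools and 1.09 and 1.09 in the nIL-1R1-/- pools, control first. Astrocyte and neuronal markers did not follow stress in one direction across these pairs. Astrocyte markers were at 7.19 and 5.70 in the vehicle pools, 5.45 and 8.57 in the IL-1R1+/+ pools and 8.11 and 5.24 in the nIL-1R1-/- pools, control first. Neuronal markers were at 36.4 and 52.9, 61.1 and 37.0, and 37.8 and 30.7 in the same order. Mature oligodendrocyte markers were at 0.234 and 1.95, 2.64 and 0.210, and 0.621 and 1.73. Endothelial markers were at 0.351 and 5.33, 1.08 and 3.23, and 1.63 and 0.320. *Mertk* and *Htra1* were higher in astrocytes (854 and 666 CPM) than in OPC (206 and 150.3 CPM). The part of other cell types in the stress values of single genes was not tested, apart from the fit without nuclei that hold their markers.

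Differences between cell types were tested directly, as the RSD effect in OPC minus that in another class of nuclei in the same pools. Against mature oligodendrocytes 0 of 2856 genes passed (0%, 82 at an unadjusted p under 0.05, edgeR). Against all other nuclei 0 of 2856 passed (0%, 100 at an unadjusted p under 0.05, edgeR), and no other tool was run. Both unadjusted counts are below a share of 0.05 of the genes tested. Within mature oligodendrocyte nuclei RSD gave 0 of 4975 genes past the threshold (0%), and within all other nuclei 67 of 18539 (0.361%). For *Zbtb16* the fold change in mature oligodendrocytes, not called there, was 1.08 ± 0.24, a difference of 0.03 ± 0.39 on the log2 scale. In all other nuclei, mostly neurons, it was 0.32 ± 0.11, and the difference of 0.80 ± 0.31 did not pass (adjusted p = 0.878). *Fkbp5* was at 1.43 ± 0.37 in mature oligodendrocytes and 0.42 ± 0.14 in all other nuclei. *Lypd6* was at -0.75 ± 0.40 in mature oligodendrocytes and -0.29 ± 0.12 in all other nuclei, and its difference from the latter was -1.70 ± 0.54 (adjusted p = 0.566). Of the tested OPC genes, *Lingo1* had the smallest p for a difference from mature oligodendrocytes, at -0.54 in OPC and 0.94 there (adjusted p = 0.884, edgeR).

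The diet contrast, PLX5622 against vehicle with 2 pools each, rested on 16 OPC nuclei in the PLX5622 pools. Of 2856 genes 2 passed (0.07%, edgeR), *mt-Rnr1* and *mt-Rnr2*, the mitochondrial ribosomal RNAs. In the same fit 185 had an unadjusted p under 0.05, above a share of 0.05 of the genes tested. Mitochondrial UMIs were part of the rule, so these 2 genes are a description. They rested on Stress-PLX5622, with 77 and 231 of its 21666 UMIs, while Control-PLX5622 held 1 and 3 UMIs. The limit of 5% mitochondrial UMIs left 12 of the 13 OPC nuclei of Stress-PLX5622 and took none from the other diet pools. The log2 fold changes were then -0.57 and -0.19, so both increases rested on a single nucleus. Without Stress-PLX5622 they were -1.81 and -1.92. The genes with the smallest p on the lower side, *Fbxl17*, *Rfx3*, *Stk39*, *Nrg2* and *Dtnb*, had 0 UMIs in both PLX5622 pools. They held 55 and 53, 44 and 46, 43 and 31, 41 and 35, and 40 and 33 UMIs in the vehicle pools, control first, and none passed. Over all 2856 genes the median log2 fold change of this contrast was -0.345, with 945 positive. The scaling factor (TMM) of Control-PLX5622 was 2.00, against 0.873 to 0.934 in the other pools. *Csf1r*, the target of PLX5622, had 13 UMIs in 7 OPC nuclei, of which 0 were in the PLX5622 pools and 3 in Stress-Vehicle. Those PLX5622 pools held 2821 and 21666 UMIs over all genes in their OPC nuclei, too few for 0 to show a change. *Csf1r* is also among the 10 microglia markers, and 3 of its UMIs lay in the 11 nuclei with mitosis UMIs. The part of microglial RNA was not tested.

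The knockout contrast, nIL-1R1-/- against IL-1R1+/+ with 2 pools each, gave 0 of 2856 genes past the threshold (0%, edgeR, and 0 in DESeq2). In edgeR 59 had an unadjusted p under 0.05, below a share of 0.05 of the genes tested. *Il1r1* itself had 2 UMIs in OPC nuclei, 1 in Control-Vehicle and 1 in Stress-Vehicle, and 0 in all 4 genotype pools, so OPC give no check of the deletion. Its coreceptor gene *Il1rap* was present at 232 and 231 CPM in the IL-1R1+/+ pools and 213 and 224 CPM in the nIL-1R1-/- pools, control first. *Plppr5*, a membrane protein of the phospholipid phosphatase-related family, was at 220 and 185 CPM in IL-1R1+/+ and 376 and 428 CPM in nIL-1R1-/- pools (log2 fold change 1.00 ± 0.33, adjusted p = 0.998, edgeR). *Sox10* was at 128 and 118 CPM in IL-1R1+/+ and 186 and 275 CPM in nIL-1R1-/- pools, and both knockout pools lay above both IL-1R1+/+ pools, as for *Plppr5*. On the lower side, *Unc5d* and *Zfp804b* had log2 fold changes of -1.51 and -1.52 (adjusted p = 0.258, edgeR), and Con-IL-1R1+/+ stood apart at 460 and 348 CPM against 113 or less in the other 3 genotype pools. Without nuclei of over 8000 UMIs the 2 log2 fold changes were -0.51 and 0.07. Leaving out Stress-IL-1R1+/+ gave 1 gene past the threshold, *Prr5l*. *Hmgb1*, a chromatin protein, was at 132 and 84.0 CPM in IL-1R1+/+ and 27.1 and 38.4 CPM in nIL-1R1-/- pools, from 33, 20, 7 and 6 UMIs (adjusted p = 0.541, edgeR).

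*Kit*, a receptor kinase related to PDGFRA, had 30 UMIs in 24 OPC nuclei, 14 of them in Con-nIL-1R1-/-. *Nr3c1* was read 194 times in 138 nuclei, at 136 to 187 CPM in the 6 pools without PLX5622.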

How the data were processed

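Nuclei were isolated from hippocampus with a myelin removal step, barcoded by split-pool rounds (Parse Biosciences) and read in sublibraries, each of which held all 8 pools; the supplementary methods name 8 sublibraries, and the labels and barcodes used here 4. The authors aligned reads to mm39 with the Parse pipeline and deposited counts of UMIs per gene and nucleus; they name Seurat 4.1.1 in their processing. The release of their gene annotation is not given in the sources used here. The counts are whole numbers without scaling and still held nuclei over 20% mitochondrial UMIs. Each nucleus took its pool from the sample name in the deposited table of nuclei.

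OPC UMIs were summed per pool and tested with edgeR 4.0.16 (R 4.3.3; TMM, filterByExpr, quasi-likelihood F-test, Benjamini-Hochberg over 2856 genes, of 17956 with a UMI), with the background of each pair as a term. Diet and genotype were contrasts of the same fit, which has 3 residual degrees of freedom. P-values measure the spread between pools alone. Pairs share diet or genotype by design; across 2856 genes, what was left of a control pool after its group mean and of its stress partner correlated at -0.0297, 0.0815, 0.0456 and 0.0389. Intervals are exact (Poisson, Clopper-Pearson, conditional binomial; scipy 1.17.1). Doublets were not called; nuclei with 2 or more UMIs of another type's markers were left out as an alternative. The scripts were tested on simulated data. Coordinates are from GENCODE vM39.

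The members, lists and tests were chosen with earlier results of these data known. Named genes are the 6 markers, the 15 with the highest ratio of OPC to other nuclei among those with at least 200 UMIs, those past the threshold or with the 5 smallest p in each direction, 2 with most UMIs and 2 with the smallest p in each list, and *Il1r1*, *Csf1r*, *Kit*, *Nr3c1* and *Fkbp5*; other genes are examples chosen after their values were seen. Alternatives were DESeq2 1.42.0, RLE factors, no filter on low counts, 5 other choices of nuclei, nuclei thinned to 500 UMIs, no pair term and each pool or pair left out. The choice without nuclei of over 8000 UMIs and 2 of those for the share were added after seeing the data. Some genes that the rule names are not reported here, and list counts and medians include them.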

Additional observations from a re-analysis of the deposited data

Results flagged for a closer look

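Of 32 comparisons of a pool with the other pools of its group, 4 had a pool far from the rest, and chance alone gives about 1 in 20. Among the control pools, the share of OPC nuclei thinned to 1000 UMIs was low in Control-PLX5622, at 0.0947%. Also among the control pools, cell cycle genes in OPC nuclei were high in Control-Vehicle, at 8.48 UMIs per 10000, against 3.55 to 4.15 in the other 3. Astrocyte markers in OPC nuclei were high in Control-PLX5622, at 24.8 UMIs per 10000, which comes from 3 nuclei. Among the stress pools, pericyte markers in OPC nuclei were high in Stress-Vehicle, at 3.53 UMIs per 10000.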

How the results depend on the processing

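Most genes had too few UMIs in 458 nuclei to be tested, both PLX5622 pools hold 16 OPC nuclei between them, and no share or gene there is firm. The number of RSD genes was 0 with DESeq2, with the stricter rule (5 marker UMIs and 20 per 10000) and in nuclei thinned to 500 UMIs, 1 without the filter on low counts, and 0 to 7 with a pair left out. With no replicate block, that is without the pair as a term, it was 4. The pairing correlations do not decide whether paired pools deviate together, since counting error in sparse genes alone can keep them low. For PLX5622 it was 0 with DESeq2, without the filter, with the stricter rule, with at most 5% mitochondrial UMIs and without nuclei with other markers, and 0 to 3 with a pool left out. For the knockout it was 2 with the stricter rule, 1 without nuclei with a *Syt1* or *Snap25* UMI, and 0 to 1 with a pool left out.

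The RSD share difference reversed to -0.0497 in nuclei thinned to 1000 UMIs, -0.0241 among nuclei low in *Syt1* and *Snap25*, and -0.0081 and -0.0586 in sublibraries 1 and 2 alone; it was 0.0140 to 0.155 with a pair left out, 0.139 in nuclei with at least 1000 UMIs and 0.416 in sublibrary 4 alone, the last 2 higher in stress in 4 of 4 pairs and at the smallest p that the sign-flip test can give. The log2 ratio for PLX5622 moved to -1.12 for marker CPM of nuclei low in *Syt1* and *Snap25*, and marker CPM over all nuclei lay closer still. For the knockout it was -0.437 thinned to 500 UMIs and -0.321 in sublibrary 3, and reversed to 0.0309 with the stricter rule, 0.339 among nuclei low in *Syt1* and *Snap25*, 0.311 for marker CPM and 0.0426 in sublibrary 4.

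Among named genes, 14 values reversed. With a pair left out, the RSD log2 fold change ran from -0.0724 to 0.286 for *Acaca*, -0.346 to 0.109 for *Tef*, -0.465 to 0.117 for *Nfkb1* and -0.0113 to 1.30 for *Mbp*, which was -0.123 with the stricter rule. For PLX5622, *mt-Rnr1* and *mt-Rnr2* were -0.574 and -0.189 at most 5% mitochondrial UMIs. With a pool left out they ran from -1.81 to 2.75 and from -1.92 to 2.70, and *Tent4b* from -6.83 to 2.39, the lowest without Stress-PLX5622. For the knockout, *Unc5d* ran from -2.30 to 0.0158, the highest without Con-IL-1R1+/+, *Zfp804b* was 0.0697 without nuclei over 8000 UMIs, *Cntn5* 0.215 with the stricter rule and *mt-Rnr1* 0.540 without nuclei with other markers. Beyond the single Stress-PLX5622 nucleus given above for the diet contrast of *mt-Rnr1* and *mt-Rnr2*, the causes were not tested. Of the other values of named genes, 568 kept direction and side of the threshold, 8 passed only under the alternative and 23 lost the call.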
